A study of Mus musculus with 26 samples.

Results

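The genes described here are the mitotic cyclins and kinases, the anaphase-promoting complex activators, the spindle checkpoint and the kinetochore genes of single mouse retinal cells. The list was set by name and holds 35 genes. Of these, 34 were measured by probe sets that the platform annotation assigns to them alone, out of 18193 genes on the array, and Ccnb1 is not analysed here. Every cell came from a retina homozygous for a floxed Notch1 allele on a C57BL/6 background, electroporated in vivo at postnatal day 0 and taken at postnatal day 3. The 13 control cells (WT) carried only a GFP plasmid under the ubiquitous CAG promoter. The 13 N1-CKO cells carried CAG-driven Cre, which removes the floxed part of Notch1, and the reporter CALNL-GFP, which lights up after Cre has acted. Cells were picked by hand for GFP, so both groups hold whichever retinal cell types took up plasmid, and each cell was amplified by PCR and put on its own array. Controls were sibling pups, but the labels tie no cell to an animal. Each group is therefore a single sample, an SD gives only the cell-to-cell spread, and the groups were not tested against each other.

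Entry into mitosis is driven by cyclin B bound to the kinase Cdk1, which the Cdc25 phosphatases switch on. The chromosomal passenger complex around the kinase Aurora B, the kinetochore built on the centromeric histone Cenpa, and the checkpoint proteins Mad2, BubR1 and Bub3 then hold the cell until every chromosome is attached. Cdc20 and the anaphase-promoting complex end this wait by marking securin and the cyclins for destruction, which frees separase. In the retina shortly after birth, progenitors still divide, and a daughter that becomes a neuron leaves the cycle and stops making these transcripts. Most of the genes are transcribed late in the cycle, in G2 and M phase, from promoters known to carry CCAAT boxes, bound by NF-Y, and a cell cycle homology region (CHR), bound by the MuvB complexes.

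Because the genes varied together over cells, as described further down, their promoters are shown first. Sequence was found in RefSeq (build GRCm38.p6) for 28 of the 34 genes. The CHR was searched as TTTGAA and the CCAAT box as CCAAT, each on both strands, in the 250 bases before the gene start. The 5 promoters below are printed 5′ to 3′ on the gene's strand, with the matches to either motif in capitals. They are those of Cdc20 and Fzr1, the alternative activators of the anaphase-promoting complex, of the kinase gene Cdk1, of the separase gene Espl1 and of Cdca3. Cdca3 had the most negative difference between the groups (mean log2 signal, N1-CKO minus WT, -5.21).
Cdc20, chr4:118437344-118437593, minus strand: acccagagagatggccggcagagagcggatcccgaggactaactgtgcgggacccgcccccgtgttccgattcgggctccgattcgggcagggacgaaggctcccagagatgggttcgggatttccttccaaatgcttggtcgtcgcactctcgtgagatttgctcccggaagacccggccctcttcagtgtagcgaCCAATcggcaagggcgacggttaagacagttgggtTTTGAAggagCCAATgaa
Fzr1, chr10:81378371-81378620, minus strand: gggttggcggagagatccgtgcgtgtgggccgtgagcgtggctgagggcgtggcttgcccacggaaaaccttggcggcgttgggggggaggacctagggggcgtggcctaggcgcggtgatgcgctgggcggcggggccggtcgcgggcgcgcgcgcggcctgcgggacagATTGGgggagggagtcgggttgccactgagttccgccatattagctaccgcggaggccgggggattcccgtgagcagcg
Cdk1, chr10:69352913-69353162, minus strand: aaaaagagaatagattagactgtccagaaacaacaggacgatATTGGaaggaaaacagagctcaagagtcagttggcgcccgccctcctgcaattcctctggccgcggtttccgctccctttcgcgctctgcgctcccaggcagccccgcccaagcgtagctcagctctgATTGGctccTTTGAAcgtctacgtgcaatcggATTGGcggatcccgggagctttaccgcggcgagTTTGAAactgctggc
Espl1, chr15:102296043-102296292, plus strand: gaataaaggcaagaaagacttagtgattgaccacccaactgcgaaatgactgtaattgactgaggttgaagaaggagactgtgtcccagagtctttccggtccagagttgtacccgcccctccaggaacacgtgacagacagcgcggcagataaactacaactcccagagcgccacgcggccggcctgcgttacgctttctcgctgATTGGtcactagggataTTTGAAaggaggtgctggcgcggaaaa
Cdca3, chr6:124829926-124830175, plus strand: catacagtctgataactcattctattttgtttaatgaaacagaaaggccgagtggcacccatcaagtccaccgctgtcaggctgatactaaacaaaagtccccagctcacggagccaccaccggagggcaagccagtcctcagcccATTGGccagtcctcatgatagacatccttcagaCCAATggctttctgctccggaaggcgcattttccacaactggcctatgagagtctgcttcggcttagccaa

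Cdc20, Cdk1 and Espl1 held both motifs in this window, with the TTTGAA of Cdc20 18 bases and that of Espl1 27 bases before the start. Fzr1 held a single CCAAT match and no TTTGAA. Of the genes listed, 22 of 28 had a CCAAT match (79.3% of their 29 windows) against 33.8% of all 32851 windows. Both motifs were found in 8 genes (31.0% of windows against 5.55%), with no overlap of their letters. A pair of CCAAT matches 31 to 35 bases apart, as in Cdca3, occurred in 6 genes (20.7% of windows against 1.21%), namely Ccnb2, Cdca3, Cdca8, Cdk1, Spc25 and Ube2c. With the 50 bases after the start included, TTTGAA was found in 17 of 28 genes (62.1% of windows against 17.9%), now including Cdca3. In the same longer window TTTGAA was found in 46.2% of windows of other mitotic kinases and regulators and in 32.4% of those of other kinetochore genes. It was found in 16.7% of windows of anaphase-promoting complex subunit genes, 11.4% of those of replication genes and 8.33% of those of cell cycle exit genes. CCAAT was found there in 82.8% of windows of the genes listed, against 37.4% of all windows. The other lists lay between these shares. Other kinetochore genes had 64.7%, cell cycle exit genes 58.3% and replication genes 57.1%. Other mitotic kinases and regulators had 53.8% and anaphase-promoting complex subunit genes 38.9%. A CCAAT share above that of all windows was therefore not particular to the genes listed. These are matches of letters and say nothing of binding in these cells.

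The arrays set limits that touch all values. Signals are MAS5 intensities, raised to a floor of 25.02 and given as log2, so that a gene at the floor has 4.65. Detection means a signal among the brightest 10% of the cell's own array, which is 4504 probe sets in each cell. By their 18S rRNA control signal the arrays formed a high set (5 WT and 5 N1-CKO cells) and a low set (8 and 8), and differences are given within each. Notch1 itself was detected in 10 WT cells (log2 4.65 to 14.55, median 13.30) and 8 N1-CKO cells (log2 4.65 to 15.26, median 12.41). Where its probe set lies relative to the deleted part is not given here, so this does not check the deletion. The Gapdh 3′ to 5′ control ratio, which grows with short cDNA, had a median of 1.79 in WT and 2.67 in N1-CKO cells. It was above 3 in 2 WT and 5 N1-CKO cells, and its part in the differences was not tested beyond repeating them without those cells.

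Many mitotic transcripts were found in most WT cells and in 3 N1-CKO cells. Of the 34 genes, a median of 19 was detected per WT cell, from 4 to 32. Per N1-CKO cell the median was 5, from 1 to 18, so the groups overlapped. WT cells 2 and 5 had 32 each, WT cells 1 and 8 had 26, and WT cells 3, 4, 10 and 6 had 25, 22, 19 and 15. WT cells 11 and 13 had 12 each, while WT cells 9, 7 and 12 had 6, 5 and 4. In the N1-CKO group the counts were 18 in cell 3, 17 in cell 1 and 12 in cell 2. The other 10 N1-CKO cells had 7 (cell 12), 6 (cells 4 and 11), 5 (cell 6), 3 (cells 5, 8 and 10), 2 (cells 7 and 9) or 1 (cell 13). N1-CKO cells 1 to 3 thus gave 47 of the 85 detections in their group (55.3%), and 10 WT cells reached or passed the lowest of these 3.

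**Figure D1:**
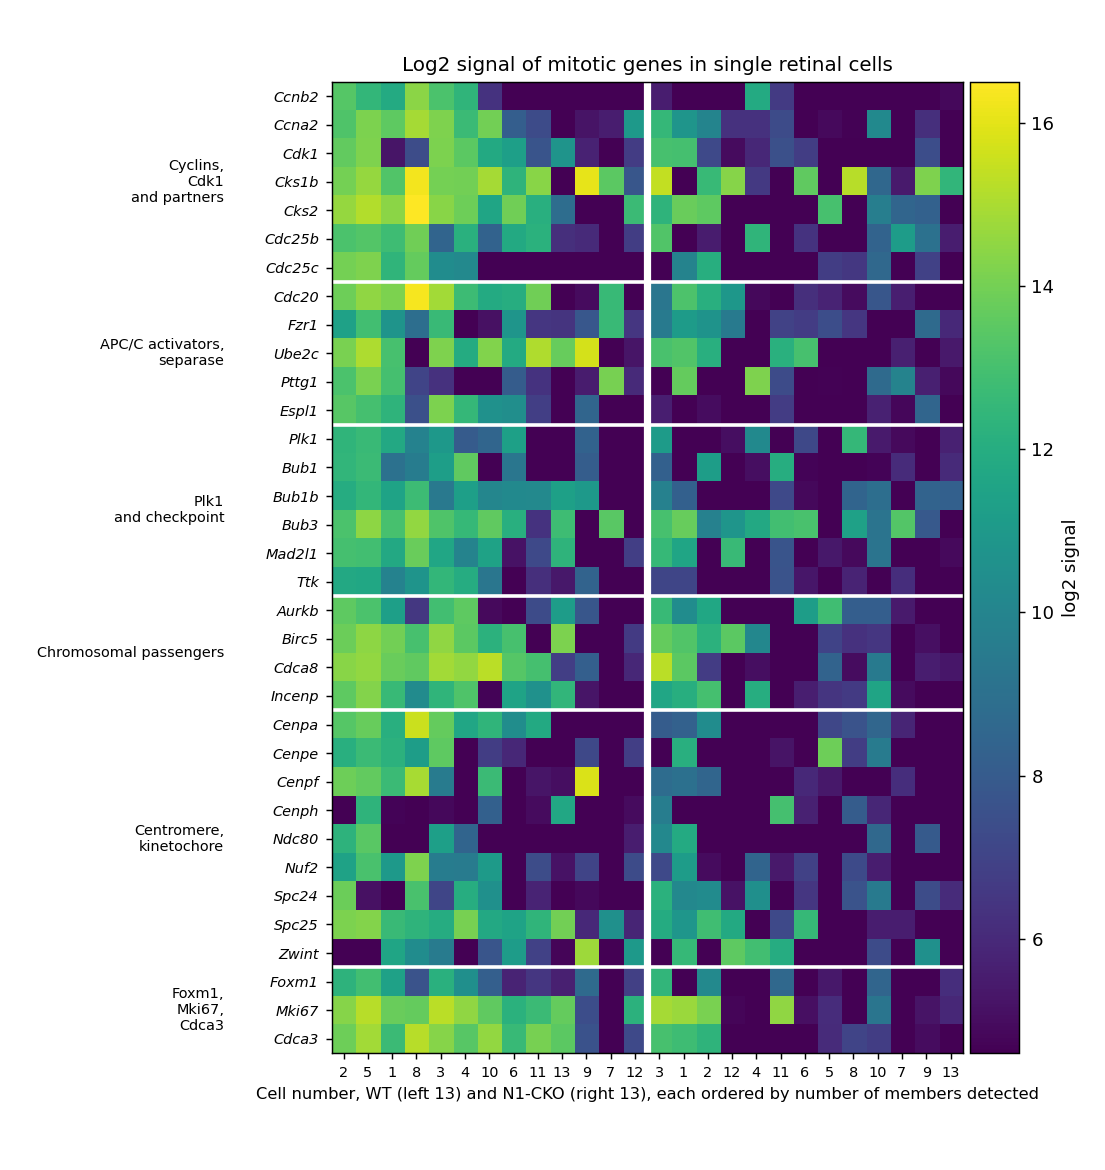
Log2 signal of the 34 mitotic genes (rows, by role) in 26 single cells (columns, labelled by cell number), WT on the left and N1-CKO on the right, each ordered by the number of these genes detected. WT cells 2 and 5 are bright over nearly the whole list, and in the N1-CKO group cells 3, 1 and 2 have the most genes detected.

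At least 12 of the genes were detected in 10 of 13 WT cells (76.9%, exact Clopper-Pearson 95% interval 46.2 to 94.96%). Only 3 of 13 N1-CKO cells reached this number (23.1%, 5.04 to 53.8%). The intervals overlapped, and they cover counting error only. The limit is a point on a range, and 2 WT cells and 1 N1-CKO cell had exactly 12. Within the high 18S set it was reached by 3 of 5 WT and 1 of 5 N1-CKO cells, and within the low set by 7 of 8 and 2 of 8. The 5 N1-CKO cells with a Gapdh ratio above 3 (4, 5, 6, 12 and 13) had 1 to 7 genes detected. With those and the 2 WT cells left out, the limit was reached by 9 of 11 WT and 3 of 8 N1-CKO cells, with medians of 19 and 4.5 genes.

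Over the single genes, 33 of 34 had a lower mean log2 signal in N1-CKO than in WT cells, beside 46.5% of all genes on the array. A difference of at least 1 in this direction was seen in 28 of 34 (11.1% of all genes), and of at least 2 in 24 (3.18% of all genes). None of the 34 was higher by at least 1, beside 9.97% of all genes. Lower means by at least 1 and by at least 2 were seen in 22.4% and 7.02% of the 8135 genes whose mean over the 26 cells was at least that of the dimmest of the 34. The median difference over the 34 genes was -2.81, and that over all genes 0.05. Of the 34, 33 were detected in fewer N1-CKO than WT cells and 1 in as many, for which no share of all genes was counted. Summed over cells, the 34 genes gave 236 detections in WT and 85 in N1-CKO cells. Over all genes there were 35190 and 35140. Detection in at least 4 fewer N1-CKO cells was seen in 23 of the 34, beside 3.06% of all genes and 6.82% of those 8135. In 7 genes (Cks2, Cdc20, Espl1, Bub1b, Cdca8, Spc25 and Cdca3) the difference exceeded both groups' SDs over cells, beside 0.462% of all genes. The values of the groups overlapped for every gene.

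The array sets differed in how far this held. In the low 18S set 32 of 34 genes were lower in N1-CKO cells (50.7% of all genes), with a median of -3.81. In the high 18S set 23 of 34 were lower (42.5% of all genes), with a median of -1.29, where the median over all genes was 0.21. Plk1, Bub1, Bub3, Aurkb, Incenp, Foxm1, Fzr1, Pttg1, Cenph, Ndc80 and Spc24 were higher in N1-CKO cells of the high set, by 0.20 (Foxm1) to 2.74 (Cenph). Cdca3 (-4.44), Cdc20 (-4.08), Cks2 (-3.59), Cdca8 (-3.21) and Cenpa (-3.12) were among those lower there too. The difference between the sets was not tested. Without the 7 cells of high Gapdh ratio, 30 of 34 genes were lower (39.2% of all genes) and the median was -2.58, with all genes at 0.22.

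**Figure D2:**
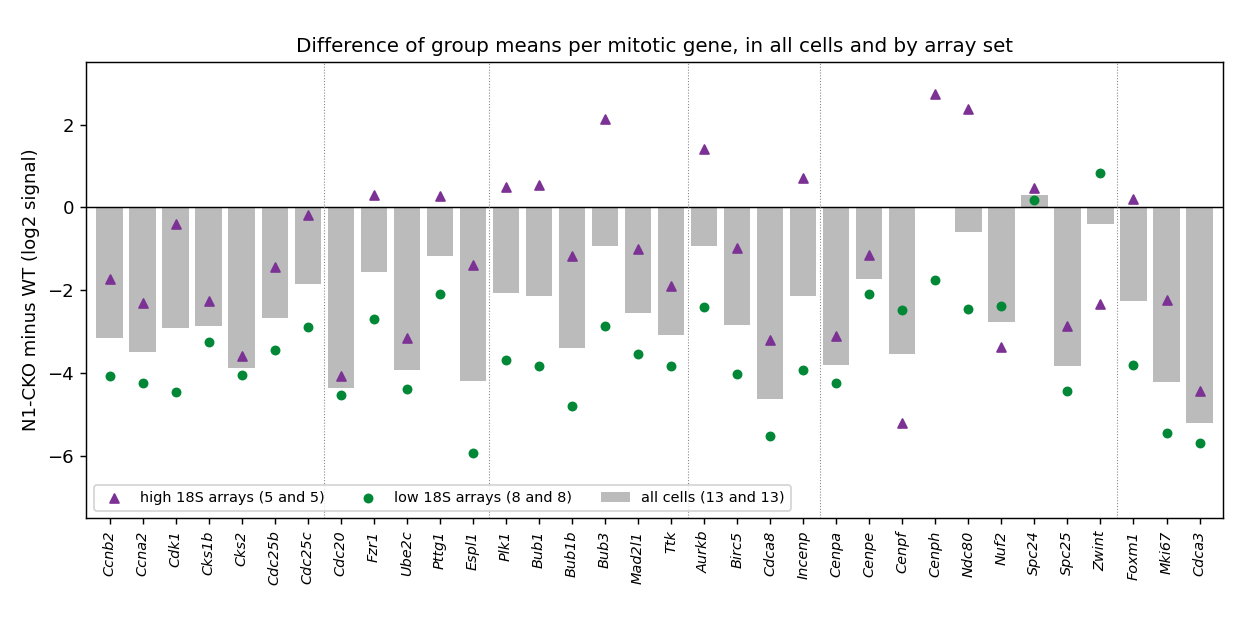
Difference of mean log2 signal, N1-CKO minus WT, for each of the 34 genes in the order of their roles. Bars show all 13 and 13 cells, triangles the 5 and 5 cells of high 18S arrays and circles the 8 and 8 cells of low 18S arrays. Circles lie below 0 for 32 genes and triangles for 23.

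The cyclin and Cdk1 genes were lower in N1-CKO cells for 7 of 7 measured members (median -2.90), and for 7 of 7 in the high 18S set too (median -1.72). Cks1b and Cks2 encode the small subunits that Cdk1 needs for binding its substrates. Cks2 ranged from 4.65 to 16.53 in WT cells (median 13.86) and from 4.65 to 13.80 in N1-CKO cells (median 8.29). It passed detection in 10 WT cells and 5 N1-CKO cells, and its means of 12.11 ± 3.82 and 8.23 ± 3.86 (SD, n = 13 cells each) differed by -3.88. Most WT cells were high and N1-CKO cells 1, 2, 5 and 3 reached the lower part of their bright range. Cks1b, whose promoter carries TTTGAA 17 bases before the start, was among the genes least tied to the others. Its signal ran from 4.65 to 16.29 in WT (median 14.01) and from 4.65 to 15.41 in N1-CKO cells (median 12.44), with 11 and 7 cells detected and a difference of -2.87. N1-CKO cells 8, 9 and 12, which had few other mitotic transcripts, had Cks1b signals of 15.24, 14.20 and 14.35. Thus high Cks1b was not limited to cells with the other genes.

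Ccna2, the S and G2 phase cyclin, ranged from 4.65 to 14.90 in WT (median 12.70) and from 4.65 to 12.52 in N1-CKO cells (median 6.29). Detection was made in 8 and 2 cells, the latter being N1-CKO cells 3 and 10, and the difference was -3.50. The B cyclin gene Ccnb2 passed detection in 6 WT cells and 1 N1-CKO cell (-3.17), and its only bright N1-CKO cell was cell 4 at 11.89. Cdk1 was detected in 7 and 2 cells (-2.90). The Cdk1-activating phosphatase genes Cdc25b (7 and 3 cells, -2.68) and Cdc25c (4 and 1 cells, -1.85) had the smallest differences of this role. For Cdk1 and Cdc25c the difference was seen in the low 18S set (-4.47 and -2.89), with -0.40 and -0.18 in the high set.

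Activators and targets of the anaphase-promoting complex were lower for 5 of 5 (median -3.92). In the high 18S set 3 of 5 were lower (median -1.39), beside 42.5% of all genes. Cdc20, which turns the complex on at the end of metaphase, ranged from 4.65 to 16.32 in WT (median 12.77) and from 4.65 to 13.16 in N1-CKO cells (median 5.80). Detected in 10 and 3 cells, it had means of 11.63 ± 4.11 and 7.27 ± 3.08. Its difference of -4.36 was close in the high (-4.08) and low (-4.53) sets. Fzr1 is the activator that takes over after mitosis and in G1. It ranged from 4.65 to 12.90 in WT (median 8.89) and from 4.65 to 11.12 in N1-CKO cells (median 6.95), with 5 and 1 cells detected. Its difference of -1.55 lay within the spread over cells and was 0.29 in the high set.

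Ube2c, the ubiquitin-conjugating enzyme of the complex, ranged from 4.65 to 15.72 in WT (median 13.75) and from 4.65 to 13.26 in N1-CKO cells (median 5.43). The 10 and 5 cells detected gave a difference of -3.92. N1-CKO cells 1, 3, 6, 11 and 2 were bright, at 12.11 to 13.26, and no other N1-CKO cell passed 5.64. Espl1, the separase that cuts cohesin, passed detection in 6 WT cells and in 0 of 13 N1-CKO cells (exact interval 0 to 24.7%), a difference of -4.19. Its highest N1-CKO signal was 8.48 against a WT median of 10.49. Pttg1, the securin that holds separase inactive, passed detection in 4 and 2 cells with a difference of -1.18, with N1-CKO cell 4 at 14.21 and the highest WT cell at 14.12.

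Checkpoint genes and Plk1 were lower for 6 of 6 (median -2.35). This was not so in the high 18S set, where 3 of 6 were lower with a median of -0.25, beside 42.5% of all genes. In the low set 6 of 6 were lower with a median of -3.75, beside 50.7% of all genes. Bub1b, which encodes the checkpoint kinase BubR1, ranged from 4.65 to 12.76 in WT (median 10.98) and from 4.65 to 9.84 in N1-CKO cells (median 7.23). Detection in 9 WT cells stood against 0 in N1-CKO (0 to 24.7%), with means of 10.12 ± 2.62 and 6.72 ± 2.04. By the detection thresholds of the N1-CKO arrays, it was at least 1.10-fold lower by this probe set. Of its other probe sets, 1 was detected in 8 WT cells and 1 N1-CKO cell (-3.92) and 1 in 0 cells (-1.69). Bub3, the shared partner of Bub1 and BubR1, was present in most cells of either group. It ranged from 4.65 to 14.59 in WT (median 13.05) and from 4.65 to 13.71 in N1-CKO cells (median 11.43), with 10 and 8 cells detected. Its difference of -0.94 was 2.14 in the high and -2.87 in the low 18S set, so that its direction was not settled.

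Mad2l1, the Mad2 protein that inhibits Cdc20, ranged from 4.65 to 13.79 in WT (median 11.45) and from 4.65 to 12.66 in N1-CKO cells (median 4.90). With 7 and 3 cells detected, the difference was -2.56. Ttk, the kinase at the head of the checkpoint, passed detection in 5 WT cells and 0 N1-CKO cells (-3.09). No N1-CKO cell passed 7.64 for it. Plk1, the polo kinase of mitotic entry, was detected in 6 and 2 cells (-2.07) and Bub1 in 5 and 2 cells (-2.15). The bright N1-CKO cells were cells 8 and 3 for Plk1 and cells 11 and 2 for Bub1, so that their transcripts were detected in different N1-CKO cells. In WT cells 2, 3, 5 and 8 both were detected.

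Chromosomal passenger genes were lower for 4 of 4 (median -2.50). In the high 18S set 2 of 4 were lower with a median of -0.14, beside 42.5% of all genes. In the low set 4 of 4 were lower with a median of -3.97, beside 50.7% of all genes. Cdca8 (Borealin) ranged from 4.65 to 15.25 in WT (median 13.60) and from 4.65 to 15.27 in N1-CKO cells (median 5.31). Detected in 9 and 2 cells, it had means of 11.77 ± 3.85 and 7.14 ± 3.58, a difference of -4.63. N1-CKO cell 3 matched the brightest WT cell, cell 1 had 13.51 and the next N1-CKO cell had 9.47. Birc5 (Survivin) ranged from 4.65 to 14.54 in WT (median 13.05) and from 4.65 to 13.68 in N1-CKO cells (median 6.49). With 9 and 4 cells detected it differed by -2.85, -0.99 in the high and -4.01 in the low set. The scaffold Incenp was detected in 9 and 5 cells (-2.14). The kinase Aurkb, detected in 6 and 4 cells, differed by -0.94, with a lower median in WT (7.79) than in N1-CKO cells (8.16).

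**Figure D3:**
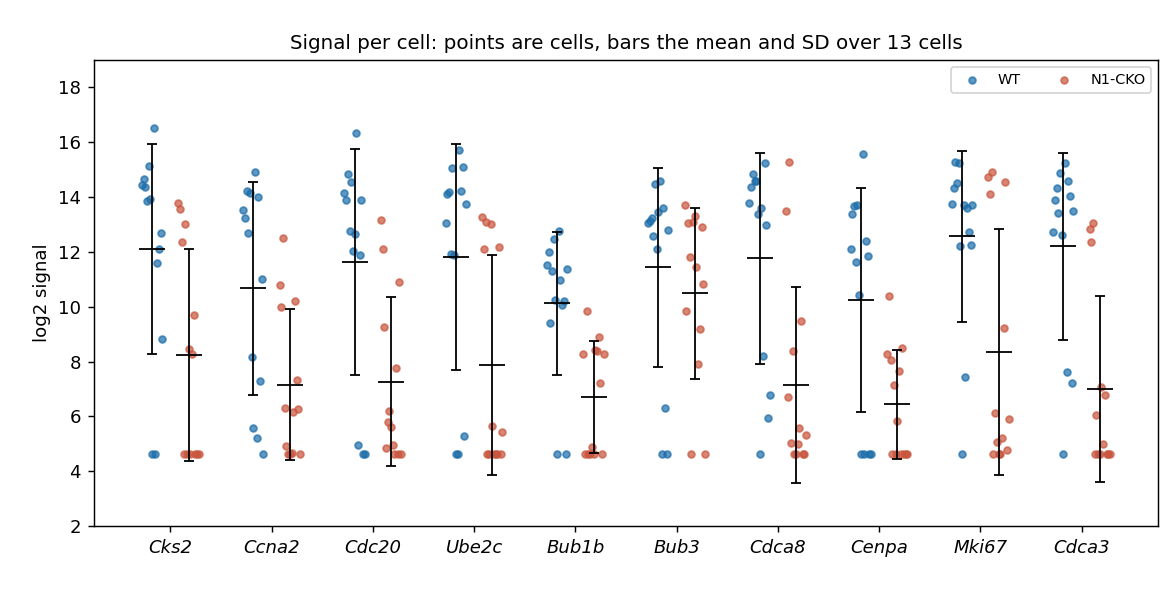
Log2 signal per cell for 10 of the genes, with a point for each of 13 WT (blue) and 13 N1-CKO (red) cells and bars for the mean and SD over cells. Signals spread from the floor of 4.65 up to 16.53, with some cells between. For Cdca3 10 WT and 3 N1-CKO cells were detected, while for Bub3 10 WT and 8 N1-CKO cells were detected.

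Kinetochore genes were the least uniform, with 8 of 9 lower and a median of -1.73. In the high and low 18S sets 6 and 7 of 9 were lower, with medians of -2.33 and -2.39, beside 42.5% and 50.7% of all genes. Cenpa, the histone H3 variant that marks the centromere, ranged from 4.65 to 15.57 in WT (median 11.83) and from 4.65 to 10.40 in N1-CKO cells (median 5.85). Of 13 cells each, 8 WT and 0 N1-CKO cells passed detection, with means of 10.25 ± 4.08 and 6.44 ± 1.99. By the thresholds of the N1-CKO arrays it was at least 1.20-fold lower. Its other probe sets, detected in 0 cells, gave -0.57 and -0.02. Cenpf, a large protein of the outer kinetochore in G2 and M phase, was detected in 6 and 0 cells (-3.54). The kinesin Cenpe was detected in 5 and 2 cells (-1.73), and N1-CKO cell 5, with 3 of the 34 genes detected, had the highest signal of all cells for it at 13.88. Detection in 0 N1-CKO and at least 5 WT cells, as for Espl1, Bub1b, Ttk, Cenpa and Cenpf, was seen in 5 of 34 genes and in 0.225% of all genes. These counts rest on 1 probe set per gene, and another Bub1b probe set was detected in 1 N1-CKO cell.

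The 4 subunits of the NDC80 complex, which binds microtubule ends, were all detected in fewer N1-CKO than WT cells. Their mean differences were unlike, from -3.83 to 0.29. Spc25 ranged from 5.83 to 14.28 in WT (median 12.33) and from 4.65 to 12.85 in N1-CKO cells (median 5.56), with 10 and 4 cells detected and means of 11.65 ± 2.80 and 7.81 ± 3.55. It was the only one of the 34 genes with every WT cell above the floor, and differed by -3.83. Nuf2 was detected in 4 and 1 cells (-2.77) and Ndc80 in 3 and 1 cells (-0.60). Ndc80 was at the floor in 8 WT and 9 N1-CKO cells. Spc24 was the only gene with a higher mean in N1-CKO cells (0.29). Its signal ran from 4.65 to 13.82 in WT (median 5.15) and from 4.65 to 12.20 in N1-CKO cells (median 7.35), with 4 and 1 cells detected, and without N1-CKO cell 3 its difference was -0.09. The inner kinetochore gene Cenph was detected in 2 and 1 cells (-0.02), and its sign turned with the removal of single cells.

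Zwint, which links the checkpoint to the outer kinetochore, stood outside the pattern by the probe set used. It ranged from 4.65 to 14.77 in WT (median 7.72) and from 4.65 to 13.53 in N1-CKO cells (median 4.65), was detected in 5 cells of each group and differed by -0.39. Its brightest cell was WT cell 9, which had 6 of the 34 genes detected, and its difference was 0.16 without that cell. N1-CKO cells 12 and 4 had 13.53 and 12.88 with 7 and 6 of the genes. The Zwint difference was -2.33 in the high and 0.82 in the low 18S set. Other Zwint probe sets gave -1.23 (3 WT and 2 N1-CKO cells detected), -0.44, -0.21, 0.41, 0.47 and 0.86, so that its direction was not settled.

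The remaining genes were Mki67, Cdca3 and Foxm1, all lower in N1-CKO cells. Mki67, the proliferation antigen that coats mitotic chromosomes, ranged from 4.65 to 15.29 in WT (median 13.70) and from 4.65 to 14.90 in N1-CKO cells (median 5.91). With 11 and 4 cells detected, it differed by -4.22. N1-CKO cells 3, 1, 11 and 2 had 14.90, 14.73, 14.53 and 14.11, above the WT median, and the other N1-CKO cells were not detected. Cdca3, a mitotic entry factor, ranged from 4.65 to 15.23 in WT (median 13.50) and from 4.65 to 13.05 in N1-CKO cells (median 4.99). It was detected in 10 and 3 cells, again N1-CKO cells 3, 1 and 2, with means of 12.21 ± 3.41 and 7.00 ± 3.38. Its difference of -5.21 was the lowest of the 34. Its other probe sets, detected in 0 cells, gave 0.18 and 0.07. Foxm1, a transcription factor of late cell cycle genes, was detected in 5 and 1 cells (-2.27).

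The genes varied together from cell to cell. After each group's mean was subtracted, a gene's Spearman correlation over the 26 cells with the mean of the other 33 had a median of 0.61. Over 4654 other genes detected in at least 6 cells, the correlation with the mean of the list had a median of 0.06, and 0.45 at its 95th percentile. Cells may share an animal or batch in ways the labels do not give, so this is a description. Ccna2 (0.87), Cenpa (0.82), Cdca8 (0.81) and Nuf2 (0.80) followed the list most closely. Zwint (-0.09), Cks1b (0.12), Cenph (0.12) and Pttg1 (0.23) did so least. Within WT cells alone the median correlation was 0.75 and within N1-CKO cells 0.38, over 13 cells each. The mean of the list had a correlation of 0.43 with the log2 detection threshold of the array, which is close to that 95th percentile. Its correlation was -0.25 with the log2 Gapdh ratio and -0.18 with the log2 18S signal. The part of these array measures in the shared variation was not tested.

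Outside the list, the genes whose signal followed its mean most closely over the 26 cells were Top2a (0.85), the topoisomerase that untangles chromosomes, and the spindle gene Spag5 (0.84). Dbf4 (0.82), the activator of the replication kinase Cdc7, the cohesin protector Sgo1 (0.75) and the mitotic kinase Pbk (0.75) came next. Gli3 (0.74), a transcription factor of Hedgehog signalling, the cytokinesis factor Ect2 (0.74) and the protease gene Prss23 (0.73) completed the 8. Ect2 passed detection in 8 WT cells and in 0 N1-CKO cells.

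Other genes of the same machinery were described in the same way. Of 16 subunits and partners of the anaphase-promoting complex, 8 were lower and 8 higher in N1-CKO cells (median -0.10). In the high 18S set 2 of 16 were lower (median 0.82) and in the low set 12 of 16 (median -0.58). Anapc5 was detected in 12 and 11 cells (12.80 ± 2.16 against 12.89 ± 2.76), Anapc11, the catalytic RING subunit, in 11 and 12 (0.10) and Ube2s, the enzyme that extends ubiquitin chains, in 8 and 10 (1.05). Per cell, a median of 8 of these 16 was detected in WT (2 to 12), while N1-CKO cells had 9 (4 to 12), unlike Cdc20 and Ube2c above. Of 13 other mitotic kinases and regulators, 12 were lower (median -1.84), with 8 of 13 (-0.81) in the high and 10 of 13 (-2.51) in the low 18S set. Beside both lists, 46.5% of all genes were lower, with 42.5% in the high and 50.7% in the low set. Pbk was detected in 10 and 3 cells (-3.84), Melk in 6 and 1 (-3.34) and Vrk1 in 8 and 4 (-0.60, but 3.62 in the high 18S set).

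Of 32 further kinetochore and centromere genes 29 were lower, with a median of -1.32, beside 46.5% of all genes. In the high 18S set 17 of 32 were lower (median -0.27), beside 42.5% of all genes, and in the low set 29 of 32 (median -1.99), beside 50.7%. Of the 32, 8 were detected in at most 1 cell. The 3 of highest mean were Pmf1 (7 and 6 cells, -1.53), Ska2 (7 and 4 cells, -2.02) and Cenpc1 (6 and 3 cells, -1.20). In the high set these were 1.231, 0.235 and -1.42. Of 6 further checkpoint genes 4 were lower (median -1.42), beside 46.5% of all genes. In the high 18S set 3 of 6 were lower (median -0.70), beside 42.5% of all genes, and in the low set 5 of 6 (-2.04), beside 50.7%. Spdl1 (3 and 1 cells) differed by -2.31 and Rae1 (1 and 1 cells) by -1.20, with Trip13 (4 and 3 cells) at 0.20. In the high set Spdl1 was -2.31, Rae1 1.04 and Trip13 2.71. Genes of cell cycle exit were split, 6 lower and 6 higher, with a median of -0.04 (0.30 in the high and 0.14 in the low 18S set). The Cdk inhibitor gene Cdkn1b was lower (11 and 9 cells, means of 11.89 and 9.89), and the antiproliferative genes Btg1 (12 and 13 cells, 0.76) and Btg2 (7 and 11 cells, 1.68) were higher.

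**Figure D4:**
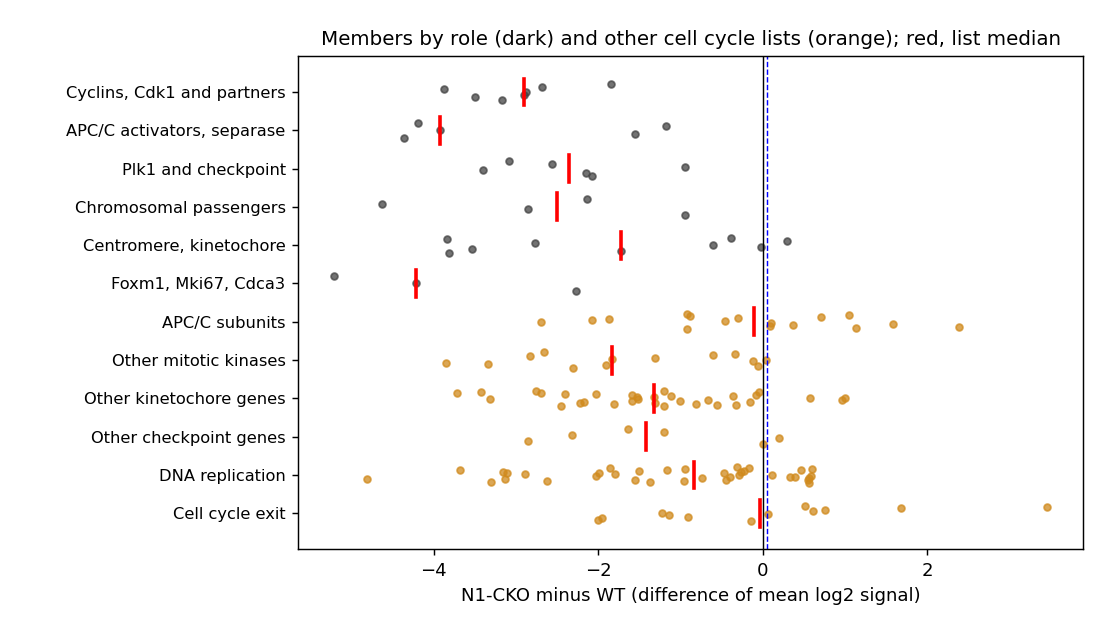
Difference of mean log2 signal, N1-CKO minus WT, for each gene (points) of the 6 roles of the list (dark) and of 6 other cell cycle lists (orange). Red bars are list medians and the dashed line is the median over all genes, 0.05. APC/C is the anaphase-promoting complex, whose subunits and the cell cycle exit genes centre near 0.

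To place cells in the cycle, 36 genes of DNA replication were counted beside the mitotic genes. WT cells had a median of 11 replication genes detected (4 to 21) and N1-CKO cells 4 (2 to 17). Lower means in N1-CKO cells were seen in 27 of the 36 (median -0.84), in 19 in the high 18S set (-0.04) and in 30 in the low set (-1.66). Of all genes, 46.5% were lower, with 42.5% in the high and 50.7% in the low set. WT cells 2 and 5, with 32 mitotic genes each, had 15 and 10 replication genes. WT cell 8 had 26 mitotic and 6 replication genes. WT cell 12 was the reverse, with 4 mitotic and 14 replication genes, as was N1-CKO cell 4, with 6 and 17. WT cell 4 had many of both, 22 and 21. N1-CKO cells 1, 2 and 3 had 8, 12 and 15 replication genes beside their 17, 12 and 18 mitotic ones. N1-CKO cells 5 to 10, 12 and 13 had at most 7 mitotic and 6 replication genes, as did WT cells 7 and 9. Transcripts alone do not fix a phase, and no cell was assigned to one.

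**Figure D5:**
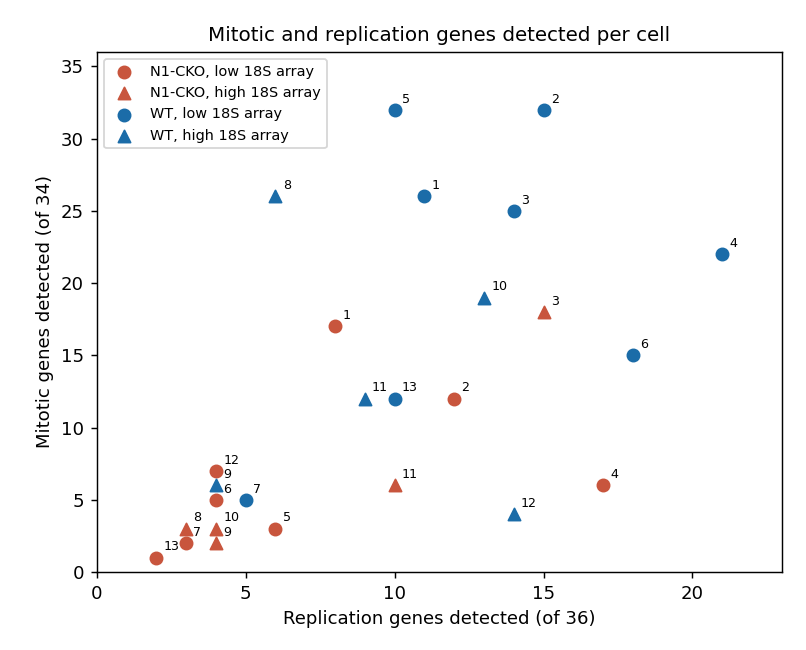
Number of mitotic genes detected (of 34) against number of DNA replication genes detected (of 36) in each of 26 cells, labelled by cell number. Blue is WT and red N1-CKO, circles are low and triangles high 18S arrays. Most N1-CKO cells lie at the lower left, while WT cell 12 and N1-CKO cell 4 have replication but few mitotic genes.

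Markers of retinal cell types were counted in the same cells. Progenitor genes had a median of 7 of 11 detected in WT cells (4 to 11, summed log2 level 91.7 to 140.3) and 5 in N1-CKO cells (2 to 8, 77.1 to 125.2). Photoreceptor genes had a median of 2 of 10 in WT (0 to 6, 54.5 to 110.1) and 5 in N1-CKO cells (1 to 8, 57.2 to 119.5). Neuronal genes had 4 of 13 (0 to 6, 66.1 to 117.4) and 5 (2 to 9, 92.3 to 141.3). Müller glia genes, of which several are also made by progenitors, had 5 of 10 (0 to 6, 69.8 to 103.7) and 3 (1 to 5, 55.6 to 100.3). Over the 26 cells, with group means subtracted, the mean of the mitotic genes had a Spearman correlation of 0.67 with that of progenitor genes, 0.51 with Müller glia genes, -0.16 with photoreceptor and -0.21 with neuronal genes. The N1-CKO cells with the most mitotic genes were not poor in differentiation genes: cells 1, 2 and 3 had 6, 7 and 8 photoreceptor and 5, 9 and 7 neuronal genes detected. WT cells 2 and 5 had 0 and 2 photoreceptor genes and 1 and 0 neuronal genes. WT cells with mitotic counts nearer to those of these N1-CKO cells were not poor in differentiation genes either. WT cells 10, 6, 11 and 13, with 19, 15, 12 and 12 mitotic genes, had 5, 5, 4 and 6 photoreceptor genes. Their neuronal genes detected were 6, 4, 5 and 5. The part of cell type in the differences was not tested.

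Markers of cells from outside the neural retina were rarely detected. Of 7 microglia genes 6 were detected in no cell and C1qa in 1 WT cell. Of 7 vascular genes 5, with Pecam1, Cdh5, Tek and Cldn5 among them, were detected in no cell, and Pdgfrb in 1 WT cell. Kdr, which is also made by retinal progenitors, passed detection in 9 WT cells and 3 N1-CKO cells.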

How the data were processed

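Each of 26 cells was hybridised to its own Affymetrix mouse array after oligo dT-primed, PCR-amplified cDNA synthesis, per the labels' protocols. The authors deposited linear signal intensity values. The submitters' processing notes name MAS5, with the version not given in the sources used here. The mean of each array after trimming 2% from each end was 500.0. The genes and lists were chosen with earlier results of these data known.

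Of 45101 probe sets, 64 are controls, 932 name several genes and 9160 others have no gene in the platform annotation. Each gene was read from its probe set of highest mean log2 over the 26 cells. Of 40 other probe sets of 20 genes, 12 had the opposite sign, and of these only those of Zwint were detected in any cell. Signals were raised to the pooled median, 25.02. Detection thresholds were signals of 245.3 to 2409. The 18S sets were split at the largest gap of the 5′ 18S control probe set, at most 2059 in the low and at least 12106 in the high set. The middle and 3′ probe sets have their largest gaps elsewhere. Bounds for genes detected in 0 N1-CKO cells set the WT mean against the higher of threshold and signal per N1-CKO array, and 3 of 5 such genes gave no bound above 1. The number of arrays limits precision, and intervals cover counting error only.

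Named with ranges were, for each role, the 3 genes (2 in roles of under 5) with the highest mean over all cells, the largest difference, and any gene higher in N1-CKO cells. From other cell cycle lists, up to 3 genes with the highest mean were named. Others were chosen after their values were seen. The difference step recovered shifts in simulated signals. Those were set well above the floor with less spread over cells than the real ones, so this checks the calculation only, not recovery at real spread. Python 3.11.15, pandas 2.3.3, numpy 2.4.6 and scipy 1.17.1 were used.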

Additional observations from a re-analysis of the deposited data

How the results depend on the processing

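The list median difference over the 34 genes stayed below 0 under all 9 alternatives to the floor, probe set, summary, scaling and set of arrays. It ran from -1.29 (high 18S arrays) to -4.46 (medians over cells), with -2.03 for the mean of all probe sets, -2.20 with the higher floor, -3.25 without one and -2.69 after quantile normalization. Between 23 (high 18S arrays) and 34 genes were lower, and between 19 and 32 by at least 1. On high 18S arrays, 24 of 34 genes kept their sign. Fzr1 (0.29), Pttg1 (0.28), Plk1 (0.49), Bub1 (0.53), Incenp (0.71), Foxm1 (0.20), Bub3 (2.14), Aurkb (1.42), Cenph (2.74) and Ndc80 (2.38) turned. With medians over cells Cdc25c came to 0.00 (at the floor in both). With probe sets of shared type left out, Cdca3 was 0.18, Spc25 -0.07 and Cenpa -0.57, where only probe sets detected in 0 cells were left, and Bub3 was -2.72. Detection at the 95th percentile left 6 WT and 1 N1-CKO cells with at least 12 genes. With 1 cell left out, the median difference was -3.18 to -2.48, the number of lower genes 32 to 34, and of those lower by at least 1, 27 to 31. The medians of genes detected were then 17 to 20.5 per WT and 4 to 5.5 per N1-CKO cell, and 9 to 10 WT and 2 to 3 N1-CKO cells had at least 12. The cause of these shifts was not tested, except where dim probe sets or the floor show it. No paired analysis was possible because cell numbers only name cells and no test was made.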
